A study of Mus musculus with 9 samples.

Results

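Chromatin open to transposase was compared between Thy-1-negative cells of day 6 (D6T-) and SSEA-1-positive cells of day 12 (D12S+), the step at which the sort used to collect reprogramming mouse fibroblasts changes its surface marker. The peaks of each library on chromosomes 1 to 19 were merged where they overlapped, giving 129532 regions in D6T- and 55759 in D12S+. Regions sharing at least 1 bp were called common, and the rest gained (called in D12S+ only) or lost (called in D6T- only). Of 138161 joined regions, 43297 were common, 9259 were gained and 85605 were lost, out of 205801 regions joined over all 9 libraries of the series. The starting cells were fibroblasts from mid-gestation embryos that carry an IRES-EGFP cassette behind the stop codon of Oct4 (Pou5f1). Both groups were made with pMXs retroviruses for Oct4, Sox2, Klf4 and c-Myc (OSKM), and were grown without feeders in medium with LIF, bFGF, ascorbic acid and CHIR99021. D6T- was taken 6 days and D12S+ 12 days after induction, and the Thy-1- library of day 9 (D9T-), which has the fewest tags of the series, was passed over. The other libraries were the starting fibroblasts (D0), day 3 (D3), SSEA-1+ cells of day 16 (D16S+), iPSCs, and day 6 cells treated with siRNA against H3.3 or a non-targeting one (D6 siH3.3, D6 siNT). Day and sort marker changed together, so they cannot be told apart. There was 1 library per group and hence no replicate, so the results below are counts, shares and levels of these libraries with no test between conditions. Intervals in brackets are 95% intervals (Wilson for shares of regions, by ranks for medians, exact over tags for single regions). They cover the sampling of regions or the counting of tags only, and not the spread between libraries.

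In ATAC-Seq, the Tn5 transposase inserts sequencing adapters where DNA is not wrapped tightly by nucleosomes, so that promoters, enhancers and insulators in use stand out as peaks. Thy-1 is a surface glycoprotein of fibroblasts that cells on the way to pluripotency give up early. SSEA-1 is a carbohydrate on the surface of early embryonic cells that appears later, and fucosyltransferases such as Fut4 and Fut9 build it. AP-1, a dimer of the Jun and Fos families, occupies many fibroblast enhancers, whereas Oct4 and Sox2 bind side by side at a composite OCT-SOX element in pluripotent cells.

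The sequences below are examples of letters whose share differed between gained and lost regions, although most gained regions hold no OCT-SOX letters. They are windows of 60 bp on each side of the summit, read from the NCBIM37 (mm9) genome on the plus strand, 5′ to 3′. The first set holds the 3 gained regions of highest pileup with the OCT-SOX letters TTGTNATGC on either strand, shown in capitals.
Gained window near Mettl15, chr2:108684138-108684258: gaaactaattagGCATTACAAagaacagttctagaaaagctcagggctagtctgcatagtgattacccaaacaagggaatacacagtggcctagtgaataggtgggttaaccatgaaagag
Gained window near Plscr1, chr9:92155867-92155987: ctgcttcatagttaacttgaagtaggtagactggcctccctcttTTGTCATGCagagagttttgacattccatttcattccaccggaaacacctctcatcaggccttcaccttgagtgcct
Gained window near Tns3, chr11:8505329-8505449: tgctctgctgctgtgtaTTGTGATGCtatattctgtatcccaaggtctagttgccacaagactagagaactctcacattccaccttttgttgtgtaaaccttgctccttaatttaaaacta
The first window lay between genes, 434 kb from the start of Mettl15. The second was in an intron, 11.0 kb from a start of the phospholipid scramblase gene Plscr1, and the third in an intron, 26.3 kb from a start of the tensin gene Tns3. The summits held 48, 39 and 33 tags in D12S+ (2.73, 2.21 and 1.87 per 1000000 total tags of the library, a scale written SPMR from here on). Each was called in D16S+ (3.83, 1.94 and 1.04 SPMR) and in iPSCs (3.16, 1.73 and 0.865 SPMR), and none in D0, D3, D6T-, D9T- or the day 6 siRNA libraries. The second set holds the 3 lost regions of highest pileup with the AP-1 letters TGANTCA, again in capitals.
Lost window near N6amt1, chr16:86853783-86853903: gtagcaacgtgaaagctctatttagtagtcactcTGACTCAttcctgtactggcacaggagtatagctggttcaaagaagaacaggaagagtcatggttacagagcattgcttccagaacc
Lost window near Lpar1, chr4:58415140-58415260: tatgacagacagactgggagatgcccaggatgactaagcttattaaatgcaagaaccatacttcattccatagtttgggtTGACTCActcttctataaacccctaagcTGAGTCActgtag
Lost window near Gm9843, chr16:76409714-76409834: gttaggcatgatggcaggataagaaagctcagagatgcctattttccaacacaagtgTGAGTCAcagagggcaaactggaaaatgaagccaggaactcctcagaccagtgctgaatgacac
All 3 lay between genes, 501 kb from the start of N6amt1, 97.1 kb from that of the lysophosphatidic acid receptor gene Lpar1 and 5.82 kb from that of Gm9843. The window near Lpar1 held the letters at 2 places. The summits held 119, 112 and 108 tags in D6T- (5.56, 5.24 and 5.05 SPMR) and were the 3 strongest lost regions of any kind. Each was also called in D0 (1.20 to 1.86 SPMR), D3 (1.52 to 2.12), D9T- (1.29 to 2.04) and D6 siNT (1.42 to 1.93), and in none of D12S+, D16S+ and iPSCs.

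The size of the 2 classes rested on the day 6 library. D6T- listed more regions than any other library (35811 to 104965 in the other 8) from 21390800 tags, against 17613087 tags in D12S+ and 13213117 to 31714845 over the series. The lowest pileup listed was 8 tags in both, which is 0.374 SPMR in D6T- and 0.454 in D12S+. The labels give 2 further Thy-1- libraries of day 6, treated with siRNA, and these listed 45312 (siNT, non-targeting) and 46211 (siH3.3) regions. The study's list of samples names no sort for these 2, so they may not match D6T- in this. Gained regions made up 6.70% of the joined regions and lost regions 62.0%. Of the D12S+ regions, 16.6% [16.3, 16.9] were gained, and of the D6T- regions 66.1% [65.8, 66.3] were lost. When only the 55759 D6T- regions of highest pileup were kept, those with at least 21 tags, gained regions numbered 19962 and lost regions 22841, and 53.6% of those gained overlapped a weaker D6T- region. When D6 siNT stood in for D6T-, an exchange chosen after seeing the data, 26284 regions were gained and 15084 lost, and D6T- had a call at 65.7% of those gained. The balance of lost and gained regions thus turned with the day 6 library. Depth, yield of regions and sort differ between the libraries, and their part in the counts was not tested.

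The gained regions were narrow and weak. Their median width was 268 bp and their median pileup 12 tags, or 0.681 SPMR (quartiles 0.568 and 0.852). The lost regions had a median width of 327 bp and a median of 15 tags, or 0.701 SPMR (quartiles 0.561 and 0.982). The common regions were wider (634 bp after joining), with medians of 1.68 SPMR in D6T- and 0.908 in D12S+. Against the lowest pileup that the other library listed, 35.0% [34.0, 36.0] of gained and 30.4% [30.1, 30.8] of lost regions were at least 2-fold higher. A summit within 1 kb of a region of the other library was found for 16.8% of gained and 8.86% of lost regions. Across chromosomes, gained regions made up between 4.71% (chromosome 19) and 9.02% (chromosome 17) of the joined regions, and lost regions between 53.6% (chromosome 7) and 67.9% (chromosome 18).

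Most gained and lost regions were away from promoters, taken as the 3 kb upstream of a transcript start. Promoters held 13.2% [12.6, 13.9] of gained, 9.10% [8.91, 9.29] of lost and 26.4% [25.9, 26.8] of common regions, against 14.8% of all joined regions. Gene bodies held 41.7%, 46.8% and 42.7%, and the space between genes 45.1%, 44.1% and 31.0%. The median distance from the summit to the nearest protein-coding start was 19.4 kb for gained, 27.7 kb for lost and 7.50 kb for common regions. Base composition differed as well. The median GC content of 100 bp on each side of the summit was 51.7% in gained, 46.3% in lost and 54.2% in common regions, and 27.7%, 14.4% and 49.9% of these windows held at least 5 CpG dinucleotides.

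Of the 5 gained regions of highest pileup 3 lay between genes. The strongest, at chr11:19314344-19314780, lay between genes 396 kb from the start of the homeobox gene Meis1, with 79 tags in D12S+ (4.49 SPMR), 6.28 SPMR in D16S+ and no call in any other library. The second, at chr2:176816971-176817424, was upstream of an annotated transcript start and 28.0 kb from the predicted gene Gm14419 (3.86 SPMR in D12S+, 5.71 in D16S+ and 0.602 in iPSCs). The third, at chr19:22002841-22003223, was 150 kb from Tmem2 (3.75 in D12S+, 6.33 in D16S+) and had been called on day 3 (1.52). The fourth lay 78.6 kb from 4930452B06Rik (3.63 and 4.53). The fifth, in an intron 15.6 kb from a start of the lipase gene Abhd6, held 3.24 SPMR in D12S+, 3.54 in D16S+, 1.81 in iPSCs and 0.643 in D6 siH3.3. All 5 were higher in D16S+ than in D12S+, and 3 of the 5 were not called in iPSCs. The strongest lost regions after the 3 printed above were upstream of the muscle adenylosuccinate synthase gene Adssl1 (103 tags, 4.82 SPMR in D6T-) and in an intron near the semaphorin gene Sema3e (101 tags, 4.72). They held 1.38 and 1.01 SPMR in D6 siNT and 1.55 and 1.46 in D3, and were called in none of D12S+, D16S+ and iPSCs.

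In the 7 libraries that did not define the classes, gained regions were called mostly in the late samples and lost regions more in the early ones. Of the gained regions, 66.1% [65.2, 67.1] were called in D16S+ and 59.7% [58.6, 60.6] in iPSCs, and 78.1% in at least 1 of these. They were called in 5.03% of cases in D0, 17.4% in D3, 3.19% in D9T-, 2.65% in D6 siNT and 2.78% in D6 siH3.3. These low shares follow in large part from the rule, because gained regions have no D6T- call and D6T- listed the most regions. D6T- had a call at nearly all D6 siNT regions. In the same way D9T- called 24887 common and 7623 lost regions but 295 gained ones, and D0 27837, 23570 and 466. Lost regions likewise have no D12S+ call, which bears on their share in D16S+. Of the lost regions, 4.90% [4.76, 5.05] were called in D16S+ and 6.66% in iPSCs, against 27.5% in D0, 41.3% [41.0, 41.6] in D3, 15.3% in D6 siNT, 16.1% in D6 siH3.3 and 8.90% in D9T-. Common regions were called in 57.5% (D9T-) to 86.5% (D3) of cases. No other library had a call at 16.8% of gained, 39.8% of lost and 2.41% of common regions. D0 or D3 had a call at 48.8% of lost and 19.3% of gained regions. With equal numbers of regions the same contrast held, since 61.8% of gained and 4.09% of lost regions were called in D16S+, and 11.5% and 39.5% in D6 siNT. The bars by library show this change of side between D9T- and D16S+.

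**Figure D1:**
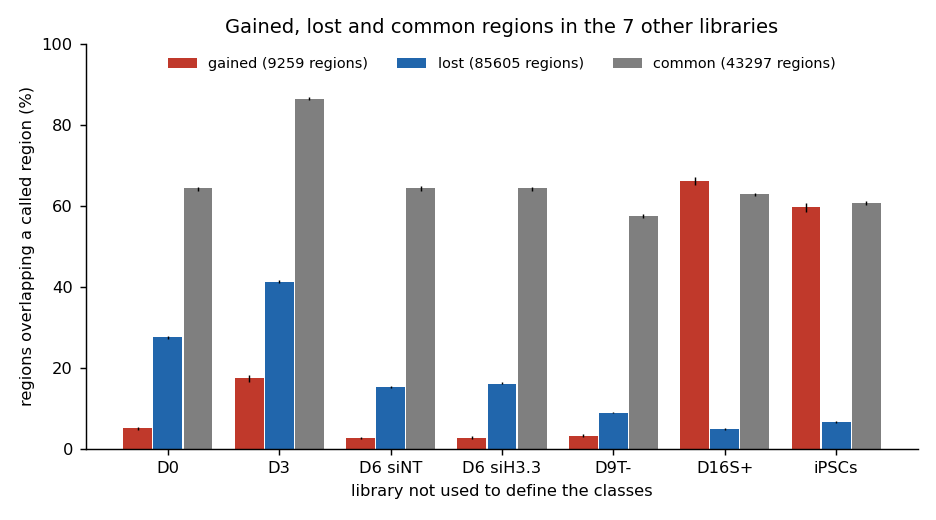
Share of gained (red), lost (blue) and common (grey) regions that overlap a called region in each library not used to define them, in percent, with Wilson 95% intervals over regions. The red bar is at most 17.4% up to D9T- and reaches 66.1% in D16S+, whereas the blue bar falls from 41.3% in D3 to 4.90% in D16S+. The rule itself keeps red bars low where the calls of a library are also D6T- calls, and blue bars low where they are also D12S+ calls.

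A pair of libraries not used to define the classes, D6 siNT with the day of D6T- and D16S+ with the sort of D12S+, gave the same order. Of the gained regions, 5940 were called in D16S+ and not in D6 siNT, and 61 the other way. Few D6 siNT calls were possible here, since gained regions are by rule those without a D6T- call. D6T- had a call at 99.3% of the regions common to D6 siNT and D12S+, and at 93.4% of those in D6 siNT only. The counts for gained regions are thus no independent check. Of the lost regions, 3563 were called in D16S+ only and 12504 in D6 siNT only, and 68907 in neither. At the 18957 common regions called in all 4 libraries, the log2 of D16S+ over D6 siNT had a median of 0.59. It was 1.26 where D12S+ was at least 2-fold above D6T- (179 regions), 0.84 and 0.67 where it was above or below by less than 2-fold, and 0.18 where it was at least 2-fold below (4644 regions). Across these regions the log2 ratios of the 2 pairs were related with Pearson's r = 0.436 and Spearman's rho = 0.380, a description over regions, which are not replicates. Effects of depth and base composition that the libraries may share were not tested. D16S+ had a call at 92.0% of the common regions that were at least 2-fold higher in D12S+ and at 37.8% of those at least 2-fold lower, and D6 siNT at 27.1% and 82.2%.

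At the common regions, the highest pileup in SPMR was lower in D12S+ than in D6T- at most places. The median log2 of D12S+ over D6T- was -0.67 [-0.68, -0.66], and 17.9% of the regions lay above 0. At least 2-fold higher in D12S+ were 1.55% of the 43297 regions and at least 2-fold lower 32.3%. With D6 siNT in place of D6T- the median was 0.46, 17.9% were at least 2-fold higher and 2.37% lower. Relative to the median, 8.83% of common regions were at least 2-fold higher in D12S+ and 10.4% at least 2-fold lower. Promoters shifted less and varied less than other places. Their median log2 was -0.59, or 0.07 above the overall median, and 3.73% were at least 2-fold lower relative to that median, against 11.5% in gene bodies and 14.4% between genes. Where the summit was within 1 kb of a protein-coding start 2.07% were at least 2-fold lower on this relative scale, and over 10 kb away 16.2%.

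**Figure D2:**
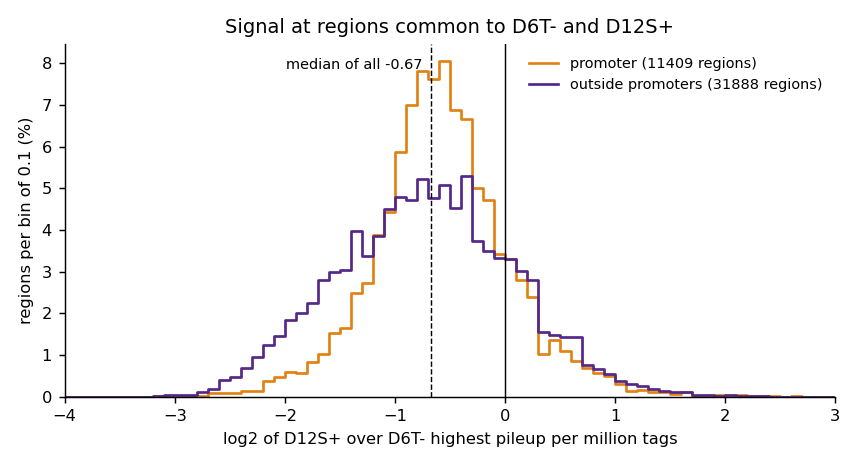
Distribution of log2 of D12S+ over D6T- highest pileup in SPMR (x axis) at common regions, in percent of regions per bin of 0.1 (y axis), for promoters (orange) and other places (purple). The dashed line is the median of all common regions, -0.67, and the purple curve reaches further to the left than the orange.

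Among common regions with at least 20 tags in either library, the 5 with the highest log2 ratio included the start of Esrp1, the epithelial splicing regulator. Its region held 11 tags in D6T- and 55 in D12S+ (0.514 and 3.12 SPMR), a log2 ratio of 2.60 [1.65, 3.69], and 2.79 SPMR in D16S+ and 0.941 in iPSCs, with no call in D0 or D3. The largest of all, at chr13:3036205-3036788, 501 kb from Gdi2, went from 13 to 76 tags (log2 2.83 [1.97, 3.80]) and held 7.13 SPMR in D16S+. An intron 16.3 kb from the start of Smgc (8 and 46 tags, log2 2.80) followed, with a place 0.201 kb from the predicted gene Gm14393 and one between genes, 11.0 kb from Gm14409, both on chromosome 2 (10 and 52 tags at each, log2 2.66). The 5 lowest ratios had 86 to 130 tags in D6T- and 8 to 10 in D12S+. The lowest, between genes 87.4 kb from Ppp2r2d, went from 6.08 to 0.511 SPMR (log2 -3.57 [-4.73, -2.60]). The others were in an intron 347 kb from Gm9343 (-3.24), between genes 31.5 kb from A930017M01Rik (-3.22), in an intron of the nuclear envelope gene Syne1 (-3.15) and at a start of the NAD kinase gene Nadk (-3.15). None of these 5 was called in D16S+ or iPSCs, and all 5 were called in D3, D9T- and D6 siNT.

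The short motifs divided the classes. The 11 sets of letters were searched on both strands in 100 bp on each side of each summit and, for the level of the surrounding DNA, in a window of equal length 1 kb away. The AP-1 letters TGANTCA were in 40.0% [39.7, 40.3] of lost, 22.1% [21.7, 22.5] of common and 5.55% [5.10, 6.04] of gained regions, and in 32.1% of all joined regions. The flanking windows held them in 6.27%, 5.50% and 5.49%, so that gained regions were at the level of their flanks. Within the common regions the share went with the signal. It was 66.8% where D12S+ was at least 2-fold lower relative to the median, 18.2% in between and 5.57% where it was at least 2-fold higher. With D6 siNT in place of D6T- it was 41.5% in lost against 11.2% in gained regions, and 55.3% against 7.44% with equal numbers. Lost regions that D6 siNT also called held the letters in 47.9% of cases and the others in 38.6%.

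With D6T- as the day 6 library, the OCT-SOX, octamer and ESRRB letters, of factors of the pluripotent network, were more frequent in gained than in lost regions. The SOX letters, given below, went the other way. The OCT-SOX letters TTGTNATGC were in 2.66% [2.35, 3.00] of gained, 0.977% [0.913, 1.04] of lost and 0.898% of common regions, and in 1.06% of all, with 0.487% to 0.518% in the flanks. The octamer ATGCAAAT, which shares the letters ATGC with the composite element, was in 3.62% of gained, 1.75% of lost and 1.86% of all regions. The letters of the orphan receptor ESRRB, CAAGGTCA, were in 2.70% [2.39, 3.05], 1.16% and 1.18%, with 1.31% in the flanks of gained regions. In gained regions called in D16S+ the OCT-SOX share was 3.02% and the ESRRB share 3.23%, against 1.95% and 1.66% in the gained regions that D16S+ did not call. These letters are short exact strings, and most gained regions held none of the 3. With D6 siNT in place of D6T- the OCT-SOX letters were in 1.49% of gained and 1.22% of lost regions and the ESRRB letters in 1.73% and 1.03%, whereas the octamer turned round, with 2.23% and 2.43%. With equal numbers the octamer share was 2.80% in gained and 1.72% in lost regions, and the OCT-SOX share 1.87% and 1.03%. In a window of 50 bp on each side the OCT-SOX share of gained regions was 1.16%.

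Other letters were more frequent in lost or in common regions. RUNX letters (TGTGGTT) were in 7.81% of lost and 3.16% of gained regions, with 4.79% and 4.70% in their flanks. The SOX letters CATTGTT were in 5.70% of lost and 3.49% of gained regions, and in 9.18% of the lost regions that D6 siNT called. TEAD letters (GGAATGT) were close in both classes (5.74% and 5.01%). The KLF letters GGGTGNGG were in 13.7% of gained, 8.87% of lost and 13.4% of common regions, and AP-2 letters (GCCNNNGGC) in 8.22%, 5.22% and 12.5%. ETS letters (CCGGAAG) and CTCF letters (CCAGNGGGC) were most frequent in common regions (5.28% and 3.37%), with 2.81% and 1.74% in gained and 0.944% and 1.25% in lost regions. Over all joined regions the shares were 6.56% for RUNX, 4.79% for SOX, 5.25% for TEAD, 10.6% for KLF, 7.69% for AP-2, 2.43% for ETS and 1.95% for CTCF. With D6 siNT in place of D6T- the KLF letters were in 12.6% of gained and 12.2% of lost regions, hardly a difference. The other sets of this paragraph kept their order of gained and lost regions in that exchange. A match of letters is a description of the sequence and not of a bound factor.

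**Figure D3:**
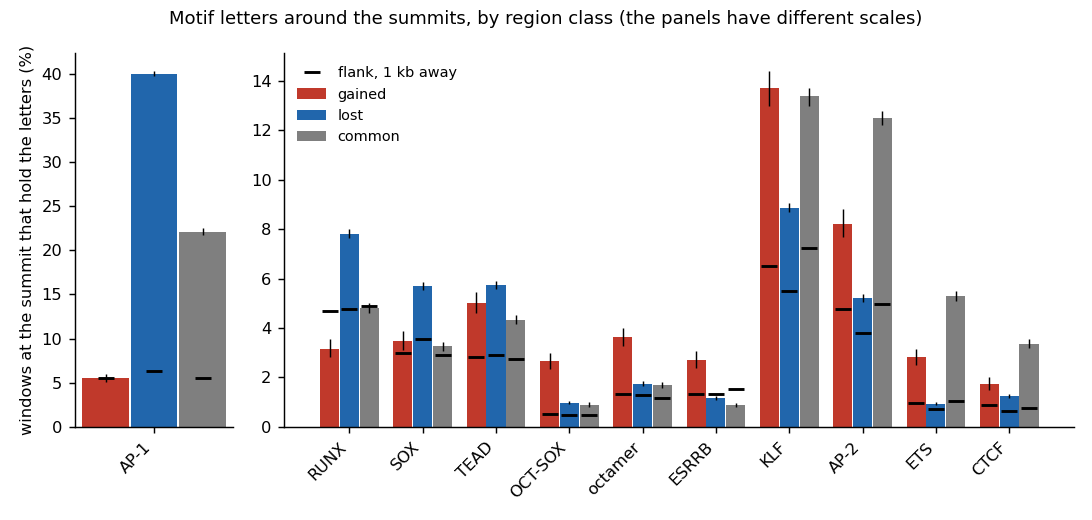
Share of windows of 100 bp on each side of the summit that hold each set of letters (y axis, percent, different scales in the panels), in gained (red), lost (blue) and common (grey) regions, with Wilson 95% intervals over regions. Black dashes give the share in windows 1 kb away, and the AP-1 share is 40.0% in lost regions but level with the dash in gained regions.

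The genes of the sort markers did not all follow the sort. At the promoter of Thy1, which encodes Thy-1, a region was called in D12S+ (11 tags, 0.625 SPMR) and none in D6T-, D9T- or the day 6 siRNA libraries, whereas D0, D3, D16S+ and iPSCs held 0.410 to 0.567 SPMR. All these values are close to the lowest pileup that the libraries list. Fut4 had a promoter region in D6T- (36 tags, 1.68 SPMR) and none in D12S+, with 1.03 SPMR in D3, 0.614 in D16S+ and 0.790 in iPSCs. Fut9 had a common promoter region with 13 tags in D6T- and 29 in D12S+, a log2 ratio of 1.44 [0.45, 2.51], and 1.79 SPMR in D16S+. The highest region anywhere in its promoter held 0.982 SPMR in D6T- and 1.65 in D12S+, a smaller difference.

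Of 5 pluripotency markers, the promoters of Nanog, Zfp42, Tdgf1 and Dppa5a were called in D12S+ and not in D6T-, and that of Esrrb in both. Of 5 fibroblast markers, the promoters of Col3a1 and Postn were called in D6T- and not in D12S+, and those of Col1a1, Col1a2 and Pdgfrb in both, lower in D12S+ (log2 -0.65, -0.66 and -0.58, near the overall median). D6 siNT held 0.689 SPMR at the Col3a1 promoter and 0.734 at that of Col1a1, against 1.19 in D12S+ for Col1a1. It had no call at the promoters of Postn, Col1a2 and Pdgfrb. Whether these regions came from all sorted cells or from some was not tested, and fewer cells with an open site cannot be told apart from a less open site in each cell. Of the haematopoietic markers found, Ptprc, Itgam and Lyz2 had no promoter region in either library and Csf1r held 0.654 SPMR in D6T- and none in D12S+. Among all protein-coding genes 29.5% had no promoter region in either library. Of 5 endothelial markers, Tek, Kdr and Cdh5 had a common promoter region (1.08 to 1.78 SPMR in D6T- and 0.681 to 1.02 in D12S+), Pecam1 a lost one and Tie1 none. Gata3, Gata4, Gata6 and Eomes of the 6 extraembryonic markers had common promoter regions, with log2 from -0.88 to -0.02.

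Of 21418 protein-coding genes, 13461 had a common promoter region, 284 (1.33%) a gained one only and 1291 (6.03%) a lost one only. A gained region lay in the gene body or the 3 kb upstream of 15.5% of the genes and a lost region in those of 55.9%. Over all these genes, 9.36% of the gained and lost regions were gained. At the strongest common promoter region of each gene, 0.468% were at least 2-fold higher in D12S+ and 18.7% at least 2-fold lower, with a median log2 of -0.61. Of the 284 gained promoters, 72.9% were called in D16S+, 75% in iPSCs, 47.5% in D3 and 1.06% in D6 siNT. Of the 1291 lost promoters, 22.2% were called in D16S+ and 33.5% in iPSCs, and 63.6% in D3. The shares of the gene lists stand against these.

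Genes of the pluripotent network had the highest gained share of the lists with 10 or more genes. They held 25 gained and 20 lost regions (55.6% gained), the gained ones in 15 of the 23 genes placed on chromosomes 1 to 19. Of the promoters, 7 had a gained region only, namely those of Nanog, Zfp42, Tdgf1, Gdf3, Lin28a, Dppa5a and Fgf4, at 0.511 to 1.31 SPMR in D12S+. All 7 were called in D16S+ (0.897 to 2.88) and iPSCs (0.602 to 1.5), and none in D6 siNT. Earlier calls were present at 2 of them, since Lin28a held 0.725 SPMR in D0 and 0.529 in D3, and Fgf4 0.364 in D3. The promoter of Prdm14 was the only lost one of the list (0.421 SPMR in D6T-), with no call in any other library. The highest gained regions of the list were in Zscan10, a zinc finger gene of embryonic stem cells (31 tags, 1.76 SPMR), and Esrrb, an orphan nuclear receptor that supports self-renewal (25 tags, 1.42 SPMR, in an intron upstream of another annotated start). Zfp42, which encodes the stem cell marker Rex1, and Tdgf1, a co-receptor of Nodal, followed with 23 tags each (1.31 SPMR). At common promoters, Tdh, the threonine dehydrogenase of mouse stem cells, went from 16 to 33 tags (log2 1.32 [0.42, 2.28]) and Sall4 from 16 to 29 (1.14 [0.21, 2.12]), against a median of -0.07 over 11 promoters of the list.

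Not every gene of the list was higher in D12S+ than in D6T-. Dnmt3l, the cofactor of de novo DNA methylation, had a common promoter region of 40 tags in D6T- and 15 in D12S+ (log2 -1.13 [-2.10, -0.25]), and Tbx3 176 and 81 (-0.84 [-1.24, -0.45]). The median over common promoters of all genes was -0.61. Against D6 siNT both went the other way, with no call and 0.852 SPMR in D12S+ for Dnmt3l, and 2.89 and 4.60 for Tbx3. Lost regions were highest in an intron of Prdm14 (1.31 SPMR in D6T-), upstream of Klf5 (1.22) and in an intron of Nr5a2 (1.17), and none of these 3 was called in D16S+ or iPSCs. Dppa2, Dppa4 and Tcl1 had no promoter region in D6T- or D12S+ but had them in D16S+ (0.567 to 0.661 SPMR) and iPSCs (0.602 to 1.02). The promoters of the 4 factors delivered by retrovirus, Pou5f1, Sox2, Klf4 and Myc, were common, and reads of the viral copies fall on the same exons. Their highest promoter levels differed from the start, with 13.1, 0.441, 0.788 and 0.757 SPMR in D0. In D3 they were 24.7, 0.628, 15.6 and 8.37 SPMR. Pou5f1 held 416 and 373 tags (log2 0.12), Klf4 101 and 28 (-1.57) and Myc 79 and 19 (-1.78). The highest region anywhere in the Klf4 promoter held 4.72 SPMR in D6T- and 2.67 in D12S+. The differences between D6T- and D12S+ at these promoters cannot be told apart from a change in viral copies.

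Epithelial genes came next, with 23 gained and 30 lost regions (43.4% gained). Cdh1, which encodes E-cadherin, had 6 gained regions, the highest of them at its promoter (24 tags, 1.36 SPMR in D12S+, 1.65 in D16S+, 1.17 in iPSCs and 0.463 in D3). The promoter of the adhesion molecule gene Epcam held 27 tags (1.53 SPMR) in D12S+, 2.08 SPMR in D16S+ and no call in D0, D3 or any day 6 library. The promoters of St14 (matriptase), Rab25 and Ovol1 were gained too, the last with no call in D16S+. Esrp1, given above, had the highest ratio of the list, and Cldn4, a claudin of tight junctions, went from 14 to 23 tags (log2 1.00 [-0.02, 2.07]). Keratin promoters had lower values in D12S+ than in D6T-. Krt8 held 62 and 12 tags at its common promoter (log2 -2.09 [-3.12, -1.18]), Krt19 45 and 11 (-1.75 [-2.85, -0.78]), and the promoter region of Krt18 was called in D6T- (0.654 SPMR) and not in D12S+, and again in D16S+ (0.520) and iPSCs (0.564). Krt8 also had a gained region upstream (0.681 SPMR in D12S+ and 0.614 in D16S+). In D6 siNT the promoters of Krt8 and Krt19 held 1.15 and 0.551 SPMR, against 0.681 and 0.625 in D12S+, and that of Krt18 had no call. Krt8 and Krt18 form the keratin pair of simple epithelia, and D3 held 0.728 and 0.463 SPMR at their promoters against no call in D0. The highest lost regions of the list were at Krt19 and in an intron of the tight junction gene Ocln (30 tags, 1.40 SPMR each).

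Fibroblast matrix genes had a low gained share, although the AP-1 and housekeeping lists had no gained region at all. The 27 genes held 3 gained and 122 lost regions (2.40% gained), and 24 of them held at least 1 lost region, the most being 20 in Fbn1, which encodes fibrillin of elastic microfibrils. The highest lost regions were in an intron of Fbn1 (71 tags, 3.32 SPMR), at the promoter of Postn, the matrix protein periostin (50 tags, 2.34), and in an intron of the collagen gene Col6a3 (47 tags, 2.20). The promoters of Postn, Acta2, Col3a1, Fap and Col6a3 were lost, at 0.795 to 2.34 SPMR in D6T-, and none of the 5 was called in D16S+ or iPSCs. Of 21 common promoters none was higher in D12S+ than in D6T- and 9 were at least 2-fold lower, with a median log2 of -0.79. Over all protein-coding genes 1457 of 13461 common promoters were higher, and the TGF-beta and DNA methylation lists had none higher either. Fbn1 went from 61 to 16 tags (-1.65 [-2.54, -0.84]) and Thbs1, the adhesive glycoprotein thrombospondin, from 60 to 17 (-1.54 [-2.41, -0.74]). These falls hold against D6T- only. In D6 siNT the highest promoter region held 0.780 SPMR for Fbn1 and 0.826 for Thbs1, below the 0.908 and 0.965 in D12S+. Col5a2 was lower in D12S+ than in D6 siNT as well (0.908 and 1.42). The gained regions were weak, in Loxl1 (0.738 SPMR), Pdgfrb (0.625) and Fn1 (0.568). Lum had no promoter region in either library but was called in D16S+ (1.23 SPMR).

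The 20 genes of mesenchymal transcription factors held 5 gained and 123 lost regions (3.91% gained), and Tbx15, Runx1 and Runx2 held 19 lost regions each. The highest were in introns of Prrx1, the paired-related homeobox gene of limb mesenchyme (61 tags, 2.85 SPMR), Runx2, the regulator of bone formation (41 tags, 1.92), and Zeb2, a repressor of E-cadherin (37 tags, 1.73). At common promoters the median log2 was -0.60, next to the -0.61 of all genes. Zeb2 went from 55 to 13 tags (-1.80 [-2.80, -0.91]) and Runx1 from 84 to 26 (-1.41), whereas Zeb1 went from 19 to 26 (0.73 [-0.18, 1.67]) and Prrx1 from 11 to 12 (0.41 [-0.90, 1.73]). The highest region anywhere in the promoter gave 1.78 SPMR in D6T- and 0.681 in D12S+ for Prrx1, the other direction, and 2.57 and 0.908 for Zeb2. In D6 siNT it gave 0.459 SPMR for Prrx1, 0.964 for Zeb2 and 1.10 for Runx1, the last against 1.48 in D12S+. The highest gained regions were those of Zeb2 and Snai1 (0.738 SPMR each). The promoters of Twist2 and Tbx5 were lost.

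The genes of AP-1 itself and of TGF-beta signalling held mostly lost regions, as did all genes (9.36% gained) and the housekeeping genes (0 gained and 16 lost). The 12 AP-1 genes held 18 lost regions and no gained one. The highest were upstream of Fosl1, which encodes the Fos-like subunit Fra-1 (52 tags, 2.43 SPMR), and in an intron of Batf (1.5). The common promoters of Fosl1 and Batf3 both had a log2 of -1.30, those of Jun and Junb -0.32 and -0.35, and that of Fosb 0.43 [-0.25, 1.12]. In D6 siNT the promoters of Fosl1 and Batf3 held 0.826 and 0.459 SPMR, against 0.908 and 0.511 in D12S+. The 15 TGF-beta genes held 7 gained and 105 lost regions (6.25% gained), every gene held a lost region, and the median log2 at the 15 common promoters was -1.04. Ltbp1, which binds latent TGF-beta, held 22 lost regions and 2 gained ones, the higher at 1.14 SPMR, and its promoter went from 59 to 12 tags (-2.02 [-3.05, -1.11]). A stronger region elsewhere in the Ltbp1 promoter brought the highest level in D12S+ to 1.36 SPMR, against 2.76 in D6T-. The promoter of the ligand gene Tgfb2 went from 61 to 17 tags (-1.56 [-2.43, -0.77]). In D6 siNT the highest promoter level was 1.38 SPMR for Ltbp1 and 0.918 for Tgfb2, close to the 1.36 and 0.965 in D12S+. The highest lost regions were in introns of the type I receptor gene Tgfbr1 (2.62 SPMR), Ltbp1 (2.57) and the signal transducer gene Smad3 (2.29).

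Genes of DNA methylation and demethylation held gained regions inside the gene, and their promoters were common throughout. The 7 genes held 13 gained and 24 lost regions (35.1% gained), the gained ones in 6 of them. The highest were in introns of the 3 dioxygenase genes that oxidise methylcytosine, Tet2 (38 tags, 2.16 SPMR), Tet3 (20 tags, 1.14) and Tet1 (19 tags, 1.08). All 3 were called in D16S+ (2.22, 1.42 and 0.803 SPMR) and iPSCs (1.73, 0.941 and 0.865) and in no earlier library. Other introns of these genes held lost regions (1.59 SPMR in Tet2, 1.64 in Tet3 and 1.08 in Tet1). None of the 7 promoters was at least 2-fold higher or lower, with a median log2 of -0.48. Of the 14 germline genes 10 had no promoter region in either library, against 29.5% of all protein-coding genes. The promoter of Piwil2 was gained at 0.625 SPMR and that of Tdrd1 lost at 0.935. The 7 primed epiblast genes held 3 gained and 8 lost regions. Otx2 had a gained promoter (0.625 SPMR), also called in D6 siNT (0.505), and Zic2 a log2 of 1.16 [0.43, 1.92] at its promoter. Fgf5 had a gained intronic region (1.48 SPMR) and a common promoter that went from 35 to 15 tags (log2 -0.94 [-1.92, -0.03]). D6 siNT had no call at that promoter. All 13 housekeeping promoters were common, with a median log2 of -0.54 and values from -1.25 (B2m) to 0.44 (Tfrc).

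**Figure D4:**
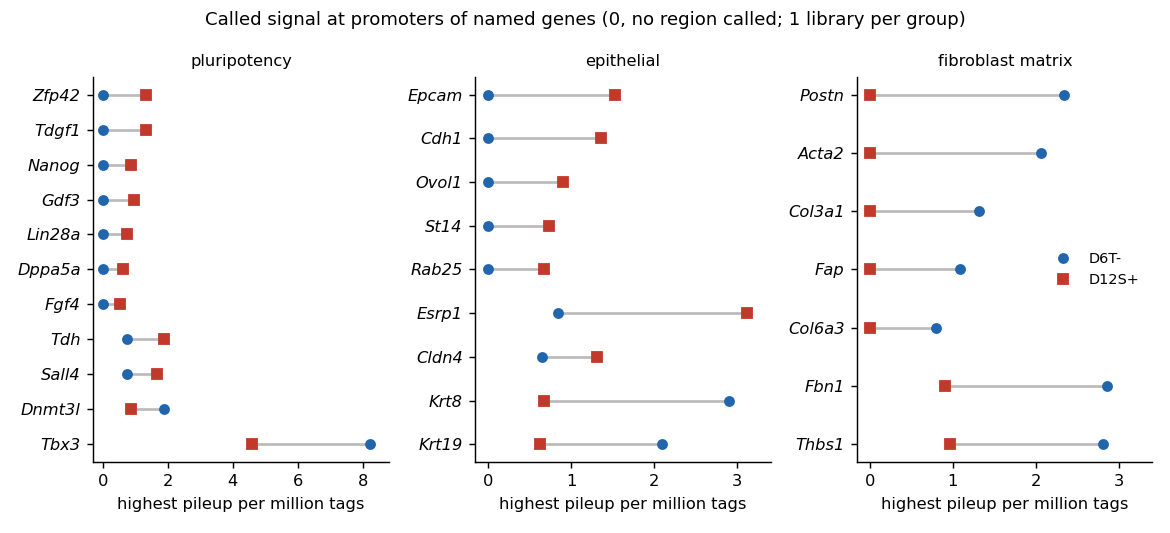
Highest pileup in SPMR of a called region at the promoter (x axis, scales differ between panels) in D6T- (blue circles) and D12S+ (red squares). A value of 0 means that no region was called. Shown are genes chosen from those with a region in a single library or the largest difference at a common promoter. The lost promoters of Prdm14 (0.421 in D6T-) and Krt18 (0.654 in D6T-) are not shown. Pluripotency and epithelial promoters such as Epcam (0 and 1.53) lie to the right in D12S+, keratin and matrix promoters such as Postn (2.34 and 0) in D6T-. Esrp1 stands at 0.841 in D6T-, the highest region anywhere in its promoter, although the region at its start held 0.514.

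Of the 9 lists plotted by gained share, 8 kept their side of the share over all genes with other day 6 regions, although the levels differed. With equal numbers 49.4% of the gained and lost regions of all protein-coding genes were gained, and the share was 88.4% for pluripotency, 82.2% for epithelial and 74.1% for DNA methylation genes. It was 24.0% for fibroblast matrix, 44.2% for mesenchymal transcription factor, 41.7% for AP-1 and 42.0% for TGF-beta genes. With D6 siNT in place of D6T- the share over all genes was 66.5%, and the first 3 lists had 97.5%, 89.5% and 72.2% and the last 4 57.5%, 50.0%, 61.1% and 52.0%. Some kept their side narrowly and on few regions. AP-1 genes held 5 gained and 7 lost regions with equal numbers and 11 and 7 with D6 siNT. Mesenchymal factors held 23 and 29 with equal numbers, and DNA methylation genes 26 and 10 with D6 siNT. Among the 6 lists not plotted, the endothelial one stayed below the share over all genes. The haematopoietic one stayed above it (11.1%, 50.0% and 100%), but on 1, 1 and 2 gained regions and close to it in the first 2 settings. The other 4, small as well, did not keep their side. Their shares with D6T-, equal numbers and D6 siNT were 13.3%, 33.3% and 66.7% for germline, 8.33%, 66.7% and 83.3% for extraembryonic, 25.0%, 57.1% and 57.1% for sort marker genes, and 0%, 50.0% and 80.0% for the reprogramming factors. Of the plotted lists housekeeping genes changed side, from 0 gained and 16 lost regions to 5 gained and 1 lost against D6 siNT. These shares describe the lists, which were drawn up knowing earlier results of these data, and longer genes weigh more in them.

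**Figure D5:**
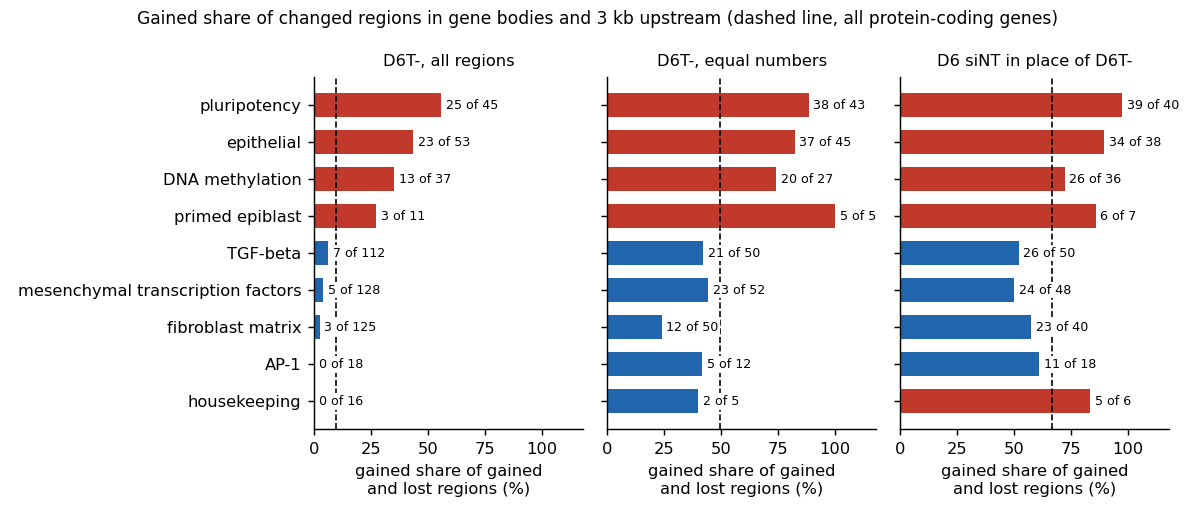
Share of gained regions among gained and lost regions in gene bodies and the 3 kb upstream (x axis, percent), by gene list, with D6T- and all regions, with equal numbers of regions, and with D6 siNT in place of D6T-. Numbers are gained of gained and lost regions, the dashed line is the share over all protein-coding genes (9.36%, 49.4% and 66.5%), and bars are red above and blue below it.

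Counted by gene model, the most regions lay in very long or multi-copy models. Gm20388, a model of 4435 kb on chromosome 8, held 37 gained, 266 lost and 179 common regions, and Fgfr2, listed here with 3009 kb, held 12, 172 and 101. Both span other genes and say little of a single locus. The other 3 models stood out for gained regions. Gm2792 (225 kb, chromosome 17) held 37 gained and 16 lost regions, Gm13242 (190 kb, chromosome 4) 22 and 3, and C130026I21Rik (278 kb, chromosome 1) 25 and 19. The most lost regions after the first pair were in Pde4d, a cAMP phosphodiesterase (72 lost, 8 gained), Arfip1 (67 and 4) and Dlg2 (64 and 6). The strongest gained promoters also included predicted genes of chromosome 2, such as Gm10770 and Gm14139, both with 2.61 SPMR in D12S+, 2.74 in D16S+ and 3.42 in iPSCs. Levels in clusters of near-identical genes are uncertain, since reads can be split or dropped there.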

How the data were processed

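ATAC-Seq peak lists of 9 libraries, 1 per group, were used as deposited. Per the file headers and the study's methods, the authors mapped reads with STAR to mm9, removed duplicates with Picard and mitochondrial reads, and ran MACS2 (2.1.0.20151222) on each library alone, with a q-value cutoff of 0.05 and tags extended to 200 bp. The signal used here is the deposited pileup, a coverage of extended tags at the summit, divided by the total tags of the file header and multiplied by 1000000 (SPMR). The deposited fold enrichment (a ratio) and the deposited -log10 q-value served as alternatives only.

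Overlapping peaks were merged within a library (pandas 2.3.3, numpy 2.4.6), and D6T- and D12S+ regions sharing 1 bp were joined. Placement used GENCODE vM1 and sequences the NCBIM37 genome (pysam 0.24.0). Placement went by the midpoint of a region, and motifs by the summit of higher pileup. Scripts were tested on simulated peak lists. Named were the sort markers, up to 3 genes per list with the highest gained and lost regions, up to 2 with the largest rise and fall at a common promoter, the 5 strongest regions of each kind and the 5 genes with most regions. Other genes, such as the remaining gained or lost promoters of a list and the keratin Krt18, were named after their values were seen. Of 189 listed genes, 2 lie on chromosome X and 2 symbols were not found. Members and lists were chosen with earlier results of these data known. The alternatives were equal numbers of regions, stricter pileup or q-value limits, a larger overlap, other signal scales, promoter and motif windows, chromosome X and, added after seeing the data, D6 siNT in place of D6T-. The labels give the siRNA libraries as Thy-1-, and the study's list of samples gives no sort for them.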

Additional observations from a re-analysis of the deposited data

How the results depend on the processing

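No paired analysis was possible because each group had 1 library, so no library could be left out either. Of the values below, the median log2 at common regions was the single value whose sign turned, to 0.46 when D6 siNT stood in for D6T-. In that exchange, chosen after seeing the data, there were 26284 gained and 15084 lost regions (47.1% of D12S+ and 33.3% of day 6 regions). Of common regions 17.9% were at least 2-fold higher and 2.37% lower, and promoters held 18% of gained and 8.66% of lost regions. OCT-SOX letters were in 1.49% of gained, AP-1 letters in 41.5% of lost and 22.7% of common regions, 1828 promoters were gained and 238 lost, and D16S+ called 57.9% of gained regions.

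With equal numbers, 19962 regions were gained (35.8%) and 22841 lost (41.0%), the median log2 was -0.89, 0.177% of common regions were at least 2-fold higher and 42.6% lower, and promoters held 16.6% of gained and 7.18% of lost regions. The motif shares were 1.87%, 55.3% and 25.8% in the order above, 1266 promoters were gained and 373 lost, D16S+ called 61.8% of gained and D6 siNT 39.5% of lost regions. The 20000 highest regions of each library gave 7337 lost regions, 34.7% gained, 36.7% lost, a median of -0.80, 0.0791% higher, 32.8% lower, 29.3% and 9.51% in promoters and motif shares of 1.77%, 63.9% and 16.5%. Regions of at least 1 SPMR gave 2980 gained and 35883 lost (14.3% and 67.3%), a median of -0.66, 0.293% higher, 25.3% lower, 18.8% and 10.4% in promoters, motif shares of 3.12%, 49.0% and 15.1%, and calls at 92.0% of gained (D16S+) and 51.2% of lost regions (D6 siNT). A -log10 q-value of at least 5 gave 5899 gained regions (16.0%), 67.8% lost, 0.772% higher, 29.7% lower, 14.4% of gained regions in promoters, AP-1 letters in 44.1% of lost and 20% of common regions, and calls at 79.3% and 26.4%.

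An overlap of 50% of the shorter region gave 17.7% gained, 66.6% lost and 14.0% of gained regions in promoters. The deposited fold enrichment gave a median log2 of -0.73 with 1.07% higher and 34.6% lower, centring 0.00 with 8.83% and 10.4%, and at least 20 tags in both libraries -0.63 with 0.487% and 22.5%. Promoters of 1 kb held 7.74% of gained and 4.29% of lost regions. Motif windows of 50 bp on each side gave 1.16%, 25.9% and 14.3%. Including chromosome X left all 7 values within their intervals or within 1.5 times. The causes of these shifts were not tested. Summits of 8 to 12 tags limit what single weak regions can show.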
